A study of Homo sapiens with 28 samples.

Results

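The HoxB genes are the homeobox genes Hoxb1 to Hoxb9 and Hoxb13, and 2 histone marks were read over them in mouse bone marrow and over a human interval in T-cell leukaemia lines. The 10 mouse genes, of 21883 protein-coding genes in the table used, were listed by name, and each was measured together with 1.0 kb on either side. The human interval, 210.0 kb of chromosome 17 in hg38, was chosen because a very long H3K27ac region had been seen there in Loucy cells, so the length of that region is a description and not a finding. No human gene annotation was used here, so human peaks are given as positions and are not assigned to genes. No sequence of either species was used here.

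Chromatin immunoprecipitation sequencing measured H3K27ac, the acetylation of lysine 27 of histone H3 found at active promoters and enhancers, and H3K27me3, the trimethylation of the same lysine, which EZH2 of the Polycomb complex places on repressed genes. By its title, the study asked how mutations of Ezh2 and Runx1 together start leukaemia from early thymic progenitors. The 5 DKOITD mice (DKOITD48, DKOITD52, DKOITD53e, DKOITD83 and DKOITD185) were Ezh2 fl/fl and Runx1 fl/fl, with 1 Rag1 allele carrying Cre (Rag1 Cre/+) and 1 Flt3 allele carrying an internal tandem duplication (Flt3 ITD/+). The 3 WT mice carried the same floxed Ezh2 and Runx1 alleles without Cre (Rag1 +/+) and with normal Flt3 (Flt3 +/+). All 8 were C57BL/6, and their ages were not given in the sources used here. DKOITD chromatin came from total marrow and WT chromatin from marrow selected on CD117 (Kit) beads, so genotype and cell preparation cannot be told apart in any mouse comparison. A Cre at Rag1 acts in lymphoid progenitors and their descendants, and the other marrow cells of a DKOITD mouse keep functional floxed alleles. The human lines were Loucy, a T-cell acute lymphoblastic leukaemia line with features of early T-cell precursors, and Jurkat, another line of that leukaemia, with 2 libraries per line and mark. Nothing in the labels says whether those came from separate cultures.

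Hox genes encode homeodomain transcription factors that set position along the body axis, and in blood the anterior and central genes of a cluster are active in stem and progenitor cells and shut down as cells mature. Polycomb repression, marked by H3K27me3, keeps unused Hox genes silent, and Trithorax-type complexes such as those of Kmt2a oppose it. Hoxb4 is known for expanding haematopoietic stem cells when it is overexpressed, and Hoxb5 is a marker of long-term stem cells in mouse marrow.

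The lists held 1891 to 25557 H3K27me3 peaks and 8825 to 22799 H3K27ac peaks per mouse. Fragments kept per library numbered 2766339 to 6411696 for mouse H3K27me3 and 6515614 to 11458360 for mouse H3K27ac. H3K27me3 peaks covered 5.20, 30.3, 3.17, 5.24 and 40.5 Mb of the genome in DKOITD48, DKOITD52, DKOITD53e, DKOITD83 and DKOITD185, against 27.3, 13.8 and 21.7 Mb in WT1, WT2 and WT3. DKOITD48, DKOITD53e and DKOITD83 stood apart from the other 5 mice with little territory, and results are given below with and without them where they matter. They were picked on the extent of H3K27me3 peaks, the quantity then compared, and DKOITD52 and DKOITD185 had more territory than any WT mouse. Higher H3K27me3 cover in DKOITD mice without those 3 was thus favoured in advance, and nothing is read from it. These values are extents of peaks: a weak mark is missed first in a library of low depth or enrichment, and no absolute level of either mark can be read from them. In marrow, a smaller share of cells that carry a mark and less mark per cell cannot be told apart.

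In every mouse the marks lay mostly in different parts of the cluster. H3K27me3 lay over its posterior genes, Hoxb13 and Hoxb9 to Hoxb6, and again over Hoxb2 and Hoxb1. H3K27ac lay within the Hoxb3 and Hoxb4 stretch between them, with a further peak in WT3 at the outer edge of Hoxb1. The share of the cluster under H3K27ac was 0.201% (DKOITD53e) to 2.02% (WT3). Most of the stretch between Hoxb5 and Hoxb2 had neither mark, though H3K27me3 covered 43.0% of it in DKOITD185. The cluster spanned chromosome 11 from 96193316 to 96369254 in mm10, a length of 176 kb from 1.0 kb before Hoxb13 to 1.0 kb after Hoxb1. A gene was called marked in a mouse with at least 200 bp of its window under peaks. By that rule 8 of the 10 genes carried H3K27me3 in all 8 mice, where 5.31% of all protein-coding genes did, and 2 of the 10, Hoxb3 and Hoxb4, carried H3K27ac in all 8 mice, where 33.7% of all genes did. Since Hoxb4 lies inside the annotated Hoxb3 interval (96307101 to 96347930), those 2 genes shared an H3K27ac peak in every mouse. No HoxB gene was marked in all WT mice and no DKOITD mouse, a pattern of 0.434% of all genes for H3K27me3 and 0.631% for H3K27ac, and none showed the opposite pattern (0.0137% and 0.352% of all genes). Likewise, at no HoxB gene did the covered percents of DKOITD and WT mice fail to overlap, where 1.25% of all genes were lower and 0.0228% higher without overlap in DKOITD mice for H3K27me3, and 7.82% and 0.941% for H3K27ac.

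**Figure D1:**
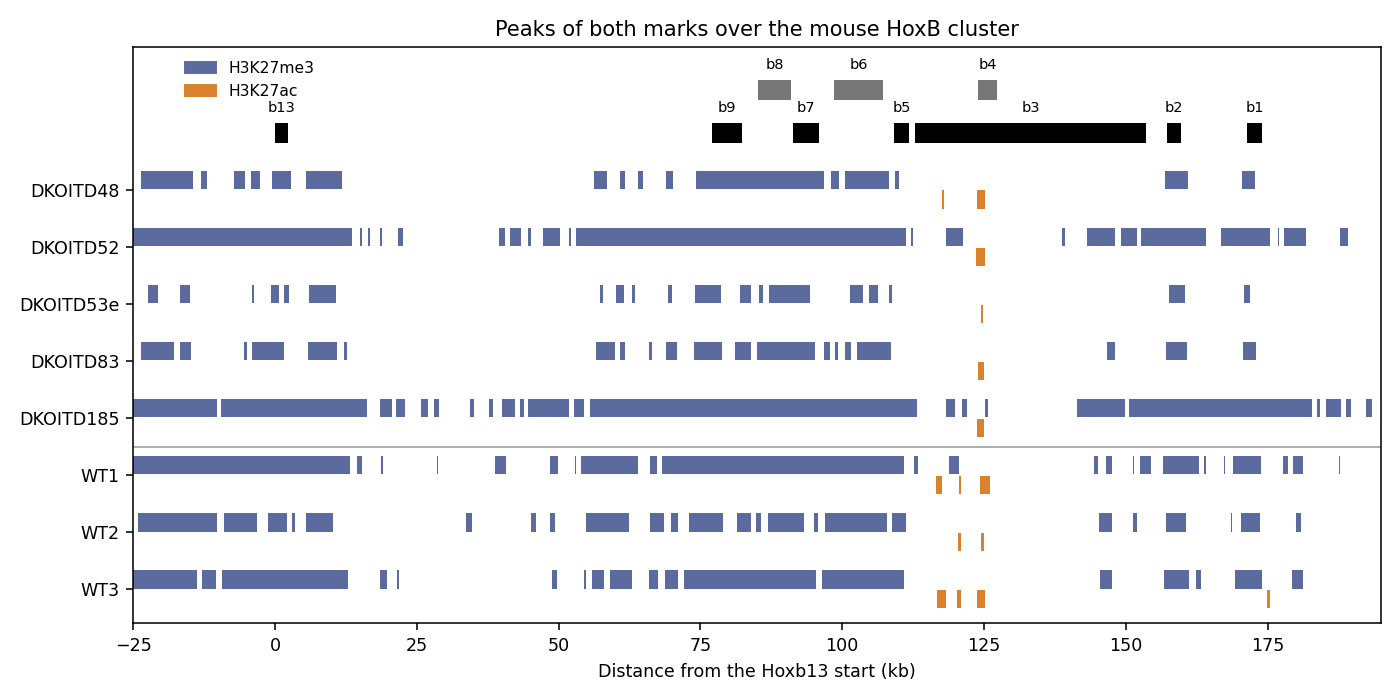
Peaks of H3K27me3 and H3K27ac in each mouse (rows, DKOITD above WT) along the HoxB cluster, as distance in kb from the start of Hoxb13; bars above mark the genes, with b13 for Hoxb13 and so on, and Hoxb8, Hoxb6 and Hoxb4 set on a higher line. H3K27me3 is continuous over long stretches in DKOITD52 and DKOITD185, is broken into short peaks in DKOITD53e, and leaves a gap at Hoxb4 in all 8 mice, which in DKOITD185 begins inside the gene.

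H3K27me3 covered 30.7%, 63.9%, 18.6%, 27.7% and 73.9% of the cluster in DKOITD48, DKOITD52, DKOITD53e, DKOITD83 and DKOITD185, and 51.8%, 35.2% and 43.5% in WT1, WT2 and WT3. The 5 DKOITD mice thus lay on both sides of the WT mice, 3 below and 2 above all of them. The means were 43.0% ± 24.4 in DKOITD mice (SD, n = 5) and 43.5% ± 8.29 in WT mice (SD, n = 3), a difference of -0.522 percentage points, and of 25.4 points without DKOITD48, DKOITD53e and DKOITD83. The direction of that last difference was favoured in advance, since the mice with the least territory were the ones left out. The order of the DKOITD mice was nearly that of their genome-wide H3K27me3 territory, and the part of that in the HoxB result was not tested. The cluster took 1.04%, 0.371%, 1.03%, 0.931% and 0.321% of that territory in the 5 DKOITD mice in the same order, against 0.334%, 0.447% and 0.353% in the WT mice. It was thus a larger share of the called territory in the 3 DKOITD mice that had little of it.

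The cluster's stretches differed in how steady the mark was. The run from Hoxb9 to Hoxb5 was covered to 78.4% ± 22.6 in DKOITD mice (n = 5) and 86.4% ± 12.4 in WT mice (SD, n = 3). The spacer between Hoxb13 and Hoxb9, 72.7 kb that hold no HoxB gene, was covered to 36.4% ± 26.8 in DKOITD mice and 37.5% ± 8.21 in WT mice. Between the end of Hoxb5 and the start of Hoxb2 the cover was 16.6% ± 20.8 in DKOITD mice and 9.69% ± 5.47 in WT mice. In this last stretch DKOITD53e had no H3K27me3 at all, and DKOITD185 had 43.0%.

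Among the posterior genes, Hoxb13 (96194316 to 96196610), known for its part in tail, spinal cord and prostate development, had 3.49, 4.29, 2.10, 2.60 and 4.29 kb of H3K27me3 in DKOITD48, DKOITD52, DKOITD53e, DKOITD83 and DKOITD185, against 4.29, 3.35 and 4.29 kb in WT1, WT2 and WT3. Its window of 4.29 kb was fully covered in 2 DKOITD and 2 WT mice, and the groups overlapped. The mean cover was 78.1% ± 23.1 in DKOITD mice and 92.6% ± 12.7 in WT mice, a difference of -14.5 percentage points with a standard error of 13.9 (limma, adjusted p = 0.896). Hoxb9 (96271330 to 96276595), which patterns the thoracic skeleton, was covered to 52.1% to 100% in DKOITD mice and 64.3% to 100% in WT mice. Hoxb8 (96279401 to 96285325), which holds myeloid progenitors immature when overexpressed, ranged over 71.8% to 100% in DKOITD mice and 75.8% to 100% in WT mice. Hoxb7 (96285604 to 96290163), whose window shares bases with that of Hoxb8, ranged over 60.2% to 100% in DKOITD mice and 54.1% to 100% in WT mice. In these 3 genes the lowest DKOITD mouse was DKOITD53e and the lowest WT mouse was WT2, the libraries with the least territory of their genotype. None of them carried H3K27ac in any mouse.

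Hoxb6 and Hoxb5 lie at the upper end of this run of genes. Hoxb6 (96292814 to 96301569), studied in myeloid and erythroid progenitors, had 9.25, 10.8, 4.06, 7.55 and 10.8 kb of H3K27me3 in the 5 DKOITD mice in the same order, against 10.8, 10.3 and 10.8 kb in the WT mice, out of a window of 10.8 kb. DKOITD48, DKOITD53e and DKOITD83 lay below all WT mice, and DKOITD52 and DKOITD185 were fully covered. The means were 78.8% ± 26.0 in DKOITD mice and 98.7% ± 2.27 in WT mice, and limma gave -19.9 percentage points with a standard error of 14.7 (adjusted p = 0.876). Hoxb5 (96303512 to 96306121) had 0.741, 3.31, 0.513, 0.385 and 4.61 kb in the DKOITD mice, against 2.77, 2.52 and 2.75 kb in the WT mice. The WT mice had similar shares of the Hoxb5 window covered, 54.8% to 60%, whereas 3 DKOITD mice lay at 8.35% to 16.1% and 2 at 71.8% and 100%. Its mean cover was 41.5% ± 41.9 in DKOITD mice and 58.1% ± 2.90 in WT mice (SD, n = 5 and 3; limma difference -16.6 percentage points, standard error 23.6, adjusted p = 0.923). Without DKOITD48, DKOITD53e and DKOITD83, limma gave 1.31 points at Hoxb6 (unadjusted p = 0.451, adjusted p = 0.680), 27.8 at Hoxb5 (unadjusted p = 0.0485, adjusted p = 0.289) and 7.36 at Hoxb13 (unadjusted p = 0.440, adjusted p = 0.677).

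**Figure D2:**
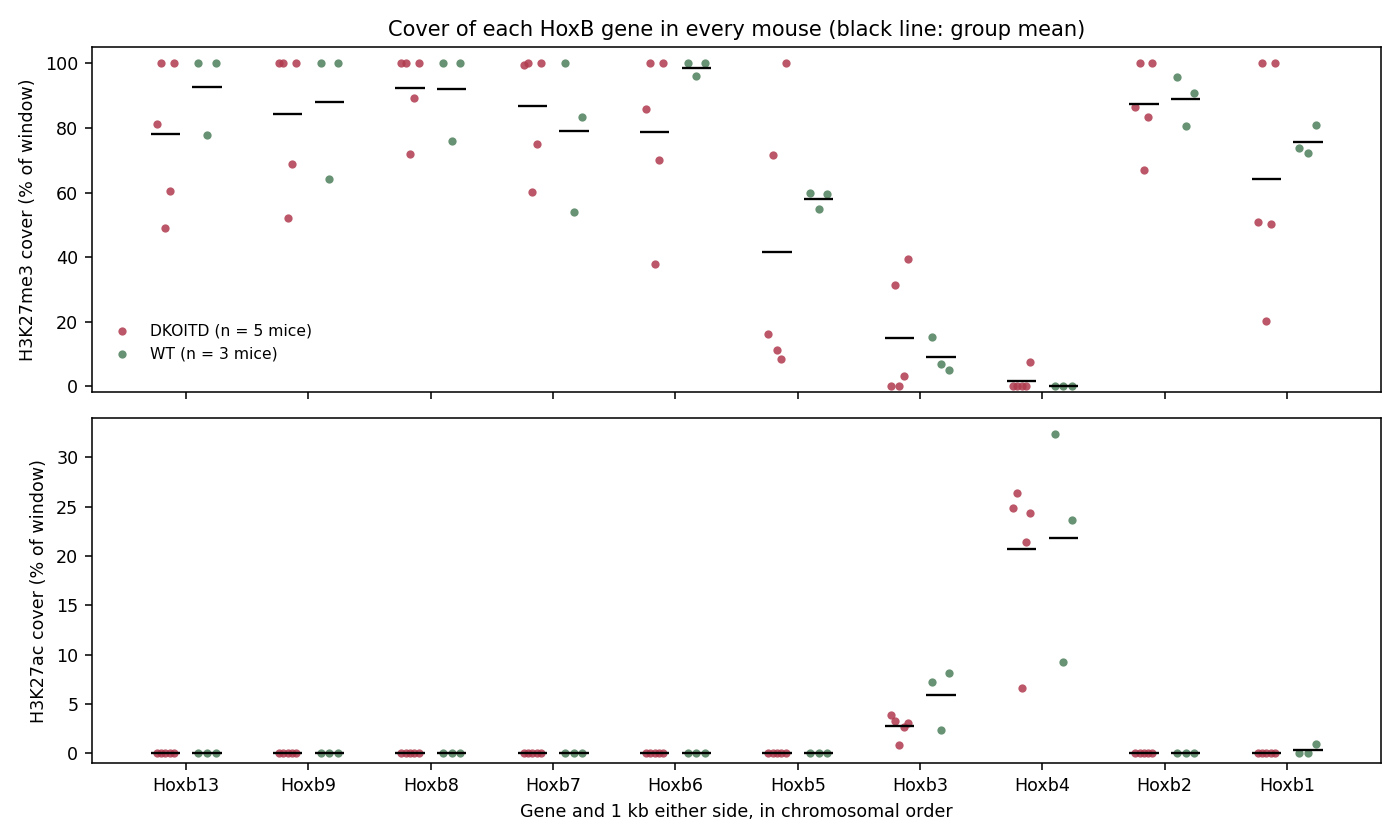
Percent of each HoxB gene and 1 kb either side under peaks of H3K27me3 (upper panel) and H3K27ac (lower panel), with 1 point per mouse, DKOITD left of WT within each gene, genes in chromosomal order, and black lines for the group means. WT points lie close together at Hoxb6, Hoxb5 and Hoxb1, DKOITD points spread widely there, and H3K27ac lies at Hoxb3 and Hoxb4, with 1 WT value just above 0 at Hoxb1.

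Hoxb3 and Hoxb4 form the middle of the cluster. Hoxb3, a gene of early progenitors whose overexpression causes myeloproliferation in mice, had no H3K27me3 in DKOITD48 and DKOITD53e and 13.4, 1.39 and 16.9 kb in DKOITD52, DKOITD83 and DKOITD185, against 6.46, 2.90 and 2.13 kb in WT1, WT2 and WT3. The groups overlapped (limma difference 5.83 percentage points, standard error 10.9, adjusted p = 0.946). Without DKOITD48, DKOITD53e and DKOITD83 the Hoxb3 difference was 26.4 points (limma, unadjusted p = 0.00540, adjusted p = 0.143). Hoxb4 (96318267 to 96321638) had no H3K27me3 in 4 DKOITD and 3 WT mice, and 0.407 kb in DKOITD185. The longest stretch from Hoxb9 to Hoxb1 with no H3K27me3, which took in all or part of Hoxb4, was 47.0, 17.5, 48.8, 38.0 and 15.7 kb long in the DKOITD mice in the same order, against 23.7, 34.1 and 34.4 kb in the WT mice. It was narrowest in DKOITD185, where it began inside Hoxb4, and in DKOITD52, the mice with the most H3K27me3 territory. A core of 13.1 kb, from 96319937 to 96333025, had no H3K27me3 peak in any of the 8 mice.

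On the anterior side H3K27me3 returned. Hoxb2 (96351632 to 96354020), a gene of hindbrain patterning, was covered to 67.1% to 100% in DKOITD mice and 80.7% to 95.8% in WT mice. Hoxb1 (96365746 to 96368254), which sets the identity of the facial motor nerve's hindbrain segment, had 2.29, 4.51, 0.916, 2.26 and 4.51 kb in the DKOITD mice, against 3.33, 3.26 and 3.65 kb in the WT mice. As at Hoxb5, the WT mice kept together while 3 DKOITD mice lay below them and DKOITD52 and DKOITD185 were fully covered. The means were 64.2% ± 34.9 in DKOITD mice and 75.7% ± 4.67 in WT mice, and limma gave -11.5 percentage points with a standard error of 19.7 (adjusted p = 0.941). Without the 3 mice of little territory, limma gave 24.3 points at Hoxb1 (unadjusted p = 0.00197, adjusted p = 0.102). Those mice were left out for their small extent of this same mark, so nothing is read from that p-value.

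limma, fitted to the covered percent of all protein-coding genes that had at least 200 bp under peaks in 3 or more mice, tested 9 of the 10 genes for H3K27me3. Hoxb4 did not pass that filter. None of the 9 differed at an adjusted p under 0.05, and none did at an unadjusted p under 0.05. Of all 4969 genes tested, 0.523% were called lower and 0% higher in DKOITD mice. The 4 genes whose fit is not given above (Hoxb9, Hoxb8, Hoxb7 and Hoxb2) had differences of -3.90 to 7.84 percentage points, with adjusted p from 0.944 to 1.00. The median difference of the 9 genes was -3.90 percentage points, beside -1.21 over all genes tested. Standard errors were 8.30 to 23.6 points, so these p-values do not show that the genotypes were alike at a HoxB gene. Without DKOITD48, DKOITD53e and DKOITD83, limma still called none of the 9 at an adjusted p under 0.05. Of the 9, 3 (Hoxb1, Hoxb3 and Hoxb5) were higher at an unadjusted p under 0.05, where 17.1% of all genes tested were below it in either direction. Leaving out the mice of least territory favoured higher values in advance, so these 3 p-values carry no weight.

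H3K27ac in the cluster was confined to 4 sites, 3 of them inside the Hoxb3 interval. The marks touched in a single mouse: 115 bp were shared in WT1, and in the other 7 mice no base of the cluster lay under peaks of both. Genome-wide, only 0.780% (DKOITD48) to 1.31% (DKOITD52) of H3K27ac bases lay under H3K27me3 peaks of the same mouse. Little overlap was thus not particular to the cluster. The site that every mouse held lay over the lower end of the Hoxb4 interval, within 96317977 to 96320358. Its peaks covered 1.33, 1.42, 0.354, 1.15 and 1.31 kb in DKOITD48, DKOITD52, DKOITD53e, DKOITD83 and DKOITD185, against 1.74, 0.5 and 1.27 kb in WT1, WT2 and WT3. DKOITD53e and WT2 were the low mice, and the groups overlapped. Of all 32836 H3K27ac regions, 19.9% were held in every mouse. By the authors' q-value the site ranked 5896 of 13405, 5843 of 17039, 7215 of 8825, 5182 of 9112 and 5612 of 19532 in the DKOITD mice, against 7394 of 22799, 5504 of 14326 and 6099 of 17113 in the WT mice. Lists differed in length, and DKOITD53e had the shortest.

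Below Hoxb4, WT mice held further sites. A site from 96314541 to 96315303, starting at -3.73 kb from the lower end of Hoxb4 and inside the Hoxb3 interval, covered 0.378, 0.529 and 0.763 kb in WT1, WT2 and WT3 and was held by none of the 5 DKOITD mice. In DKOITD52 an H3K27me3 peak lay across it, and the other 4 DKOITD mice had no peak of either mark there. In WT1 an H3K27me3 peak reached into the site as well, and the 115 bp that the marks shared in that mouse lay there. That pattern, all WT and no DKOITD mice, was shown by 3.4% of all H3K27ac regions, and the opposite pattern by 0.493%. The peaks were weak in each list, with the authors' −log10 q-values of 3.20, 2.11 and 3.03, and none remained in WT mice when only peaks of −log10 q of at least 5 were used or when each library gave its 8825 strongest peaks. Another site, from 96310834 to 96312528, covered 0.354 kb in DKOITD48 and nothing in the other 4 DKOITD mice, against 0.983 and 1.48 kb in WT1 and WT3 and nothing in WT2. The fourth site, from 96369213 to 96369804 at the outer edge of Hoxb1, was held by WT3 alone and reached 42 bp into the Hoxb1 window, too little to mark the gene.

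**Figure D3:**
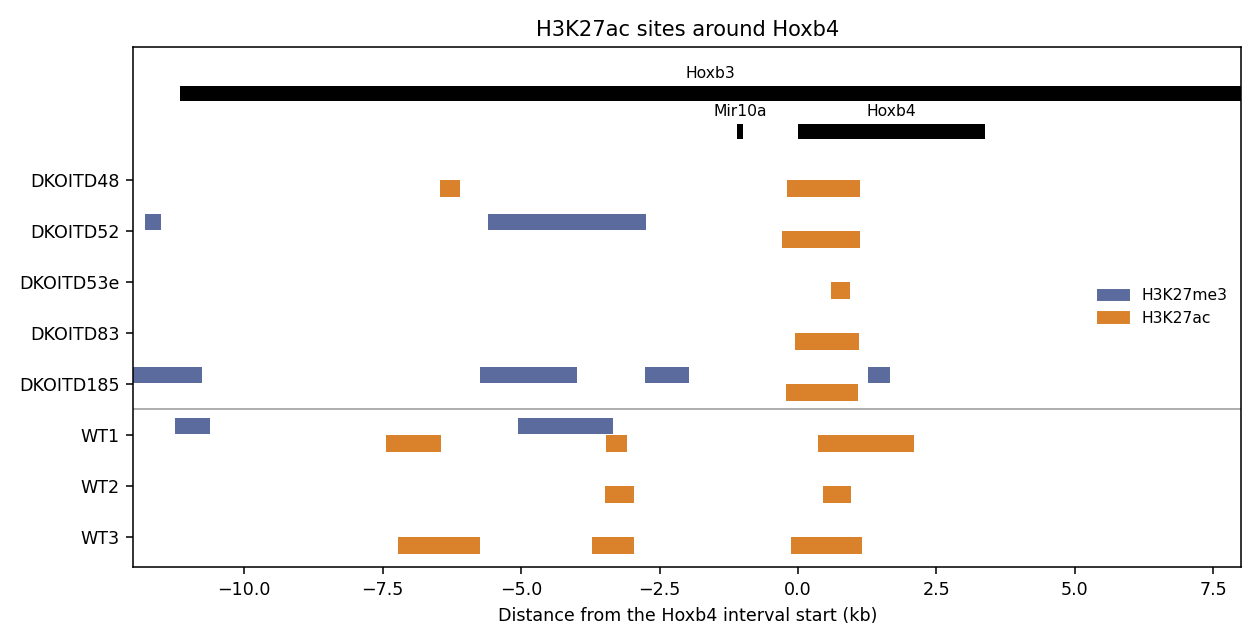
Peaks of both marks in each mouse (rows, DKOITD above WT) from 12 kb below to 8 kb above the start of the Hoxb4 interval, in kb. The site at 0 kb is present in all 8 mice, and the site near -3.73 kb is present in the 3 WT mice and in none of the 5 DKOITD mice.

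Over whole genes, H3K27ac covered 1.69, 1.42, 0.354, 1.15 and 1.31 kb of the Hoxb3 window in the DKOITD mice in the same order, against 3.10, 1.03 and 3.51 kb in WT1, WT2 and WT3. WT1 and WT3 lay above every DKOITD mouse and WT2 lay below all but DKOITD53e. The means were 2.76% ± 1.18 in DKOITD mice and 5.94% ± 3.10 in WT mice, and limma gave -3.18 percentage points with a standard error of 1.40 (unadjusted p = 0.0574, adjusted p = 0.248). The Hoxb3 difference passed the threshold without WT2, at -4.95 points with an adjusted p of 0.0415 by limma, and in no other fit that left out 1 mouse. Without WT2, limma called 490 of all 11257 genes lower and 15 higher in DKOITD mice, against 254 and 21 with all mice. Hoxb4 averaged 20.7% ± 8.10 in DKOITD mice and 21.8% ± 11.6 in WT mice (limma difference -1.04 percentage points, standard error 6.38, adjusted p = 0.933). Neither of the 2 genes that could be tested differed at an adjusted p or at an unadjusted p under 0.05 by limma with all mice, where 2.26% of 11257 genes were called lower and 0.187% higher in DKOITD mice. The other 8 genes were below the filter, 7 of them with no H3K27ac in any mouse.

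H3K27ac at several sets of cell type markers differed between DKOITD and WT mice, where genotype and cell preparation cannot be told apart. Ranges of summed cover overlapped between the groups for B and T markers and did not for the other sets. Over all protein-coding genes, 38.4% to 51.9% carried H3K27ac in DKOITD mice and 45.9% to 51.5% in WT mice. Of single genes, 7.82% were lower and 0.941% higher without overlap in DKOITD mice. H3K27ac peaks covered 7.03 to 23.8 Mb of the genome in DKOITD mice and 16.8 to 29.7 Mb in WT mice. The part of that in the marker values was not tested. Of 8 stem and progenitor markers, 0 to 2 carried H3K27ac in DKOITD mice and 4 to 6 in WT mice, with a summed cover of 0 to 1.48 kb in DKOITD mice and 2.72 to 11.3 kb in WT mice. Hlf, Gata2 and Angpt1 were at 0 in all DKOITD mice. Granulocyte and monocyte markers had 1.18 to 9.86 kb in DKOITD mice and 14.8 to 22.1 kb in WT mice (2 to 4 and 5 to 7 of 8 marked), and Elane, Camp, S100a8 and Ly6g were at 0 in all DKOITD mice. Ly6g was at 0 in all WT mice too, and Elane was at 0 in WT2 and WT3. Dendritic markers had 13.9 to 43.5 kb in DKOITD mice and 6.06 to 12.7 kb in WT mice (7 of 8 marked in each DKOITD mouse, 3 to 6 in WT mice), with Siglech at 0 in all 8 mice and Batf3 at 0 in all WT mice. Erythroid markers had 0.392 to 2.23 kb in DKOITD mice and 3.16 to 7.05 kb in WT mice (1 to 2 and 3 to 5 of 8 marked). B markers had 0.005 to 3.62 kb in DKOITD mice and 0.763 to 9.08 kb in WT mice (0 to 3 and 2 to 6 of 8 marked), and T markers had 0.911 to 1.99 kb in DKOITD mice and 1.95 to 3.13 kb in WT mice (1 to 2 and 2 of 8 marked). Gata1, Alas2 and Hba-a1 among erythroid, Rag1 and Cd22 among B, and Cd3e, Cd3g, Bcl11b, Tcf7 and Gata3 among T markers were at 0 in all 8 mice. Their part in the HoxB values was not tested.

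The nearest protein-coding genes outside the cluster were followed to see where the domain ended. Ttll6, a tubulin polyglutamylase gene 28.1 kb beyond Hoxb13, had 741, 16964, 299, 929 and 26469 bp of H3K27me3 in the DKOITD mice, against 10779, 4856 and 7654 bp in the WT mice, and no H3K27ac in any mouse. It was therefore marked on that side in all 8 mice, with long stretches in DKOITD52 and DKOITD185. Skap1, a T-cell adaptor gene 96.3 kb beyond Hoxb1, had no H3K27me3 in DKOITD48, DKOITD53e and DKOITD83 and 23698 and 73625 bp in DKOITD52 and DKOITD185, against 14275, 4825 and 4307 bp in the WT mice. Peaks of H3K27ac at Skap1 covered 495 bp in WT1 and 300 bp in WT3, and the other 6 mice had none. limma called neither gene for H3K27me3.

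The other Hox clusters give the scale. None of the 9 HoxC and 9 HoxD genes carried H3K27ac in any mouse. H3K27me3 marked 8 to 9 HoxC genes in DKOITD mice and 9 in each WT mouse, and all 9 HoxD genes in every mouse. Of 11 HoxA genes, the cluster most tied to leukaemia, 3 to 6 carried H3K27ac in DKOITD mice and 3 to 5 in WT mice, and 5 to 11 (median 9) carried H3K27me3 in DKOITD mice and 10 in each WT mouse. HoxB thus lay between these clusters in H3K27ac, with 2 marked genes in every mouse of both genotypes and H3K27me3 at 8 to 10 genes in DKOITD mice and 9 in each WT mouse. limma called no HoxA, HoxC or HoxD gene for either mark at an adjusted p under 0.05. At an unadjusted p under 0.05 it found 3 of 10 HoxA genes tested for H3K27me3 and 1 of 6 for H3K27ac, and no HoxC or HoxD gene for H3K27me3, where 6.78% of all genes tested for H3K27me3 and 21.2% of those for H3K27ac were below it. No HoxC or HoxD gene could be tested for H3K27ac. The difference between clusters was not tested. Of 7 Hox cofactor genes of the Meis and Pbx families, which bind DNA together with Hox proteins, limma tested 4 for H3K27me3 and 5 for H3K27ac, and found none at an adjusted or an unadjusted p under 0.05.

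Of 17 known regulators of HoxB genes, limma tested 8 for H3K27me3 and 13 for H3K27ac, and called 1, the retinoic acid receptor gene Rara, for H3K27me3 and none for H3K27ac. Over all genes tested for H3K27me3, 0.523% were called lower in DKOITD mice. With only peaks of −log10 q of at least 5, limma called 0 genes lower for H3K27me3, so the Rara call was not kept. At an unadjusted p under 0.05 limma found 3 of the 8 for H3K27me3 and 4 of the 13 for H3K27ac, beside the 6.78% and 21.2% of all genes tested. Rara (chromosome 11, 98927800 to 98974942) had no H3K27me3 in any of the 5 DKOITD mice and 8208, 4988 and 7193 bp of it in WT1, WT2 and WT3, a difference of -13.8 percentage points with a standard error of 1.38 (adjusted p = 0.0151 by limma). Its H3K27ac covered 10984, 18327, 8477, 7246 and 21872 bp in the DKOITD mice, against 8458, 4030 and 4920 bp in the WT mice, and those groups overlapped (limma, adjusted p = 0.281). Retinoic acid is a known inducer of anterior Hox genes. The caudal genes Cdx1, Cdx2 and Cdx4, known activators of Hox genes, had no H3K27ac in any mouse.

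Across the 16 mouse libraries, genes outside the cluster close to the median HoxB profile included Emx2, Foxe3, Otp and Hoxc9, by the mean absolute difference of covered percents (2.29, 2.44, 2.68 and 2.74 percentage points). Hoxb13 and Hoxb9 lay at 2.30 and 3.02 points from that median profile. Hoxb5, Hoxb3 and Hoxb4 lay farthest from it, at 16.5, 36.0 and 50.4 points. These 4 outside genes encode transcription factors, and their mean H3K27me3 cover was 77.7% to 83.4% in DKOITD mice and 82.0% to 96.1% in WT mice, with no H3K27ac. The libraries share the depth and territory differences given above, so nearness here follows each library's extent of peaks as well.

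In the human interval, H3K27ac covered 44.6% and 46.2% (93.8 and 97.0 kb) in Loucy 1 and Loucy 2, against 3.95% and 4.09% (8.29 and 8.60 kb) in Jurkat 1 and Jurkat 2. The libraries of a line differed by far less than the lines did, a gap of 41.4 percentage points between the means, but the interval was chosen on the Loucy region and no test was made. In Loucy 2 the region was a single peak of 88.1 kb, from 48560480 to 48648572. In Loucy 1 it was called as 2 peaks, of 68723 bp (48560723 to 48629445) and 18012 bp (48630519 to 48648530), with 1073 bp between them. The interval reached 35.5 kb below and 86.4 kb above the region as called in Loucy 2. The ends of the region in the 2 Loucy libraries were 243 bp apart on the lower side and 42 bp apart on the upper side.

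**Figure D4:**
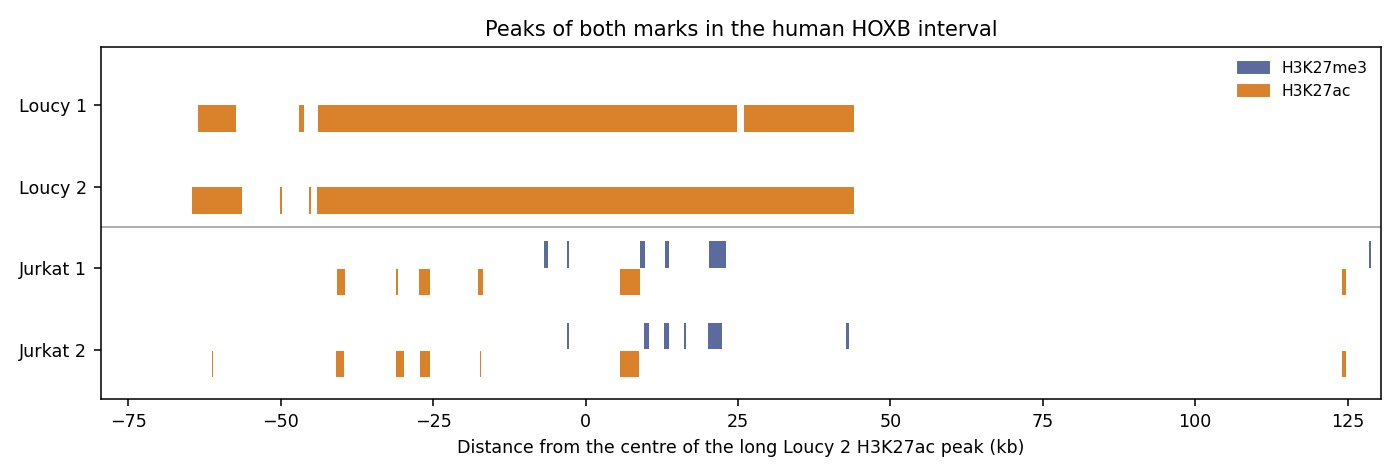
Peaks of H3K27me3 and H3K27ac in each human library (rows, Loucy above Jurkat) over the interval on chromosome 17, in kb from the centre of the long Loucy 2 H3K27ac peak. The long H3K27ac region fills 88.1 kb in Loucy 2 and nearly the same span in Loucy 1, while Jurkat has short peaks of both marks inside that span.

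The region held the longest H3K27ac peak in both Loucy lists, of 30300 peaks in Loucy 1 and 40305 in Loucy 2. The next longest Loucy peaks, elsewhere in the genome, were 54.0 kb in Loucy 1 and 63.7 kb in Loucy 2. The longest Jurkat H3K27ac peaks, also elsewhere, were 49.4 and 50.7 kb, and the longest inside the interval were 3.25 and 3.17 kb. Median peak lengths of the 4 lists were 0.996 and 1.02 kb in Loucy and 1.08 and 1.17 kb in Jurkat, so ordinary peaks were of similar length in both lines. By strength the region was less extreme: its authors' fold enrichment was 7.86 and 6.69 for the 2 peaks of Loucy 1 and 9.57 in Loucy 2, and by q-value it ranked 1616 and 2908 in Loucy 1 and 1661 in Loucy 2. A broad peak's fold is an average over its length.

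**Figure D5:**
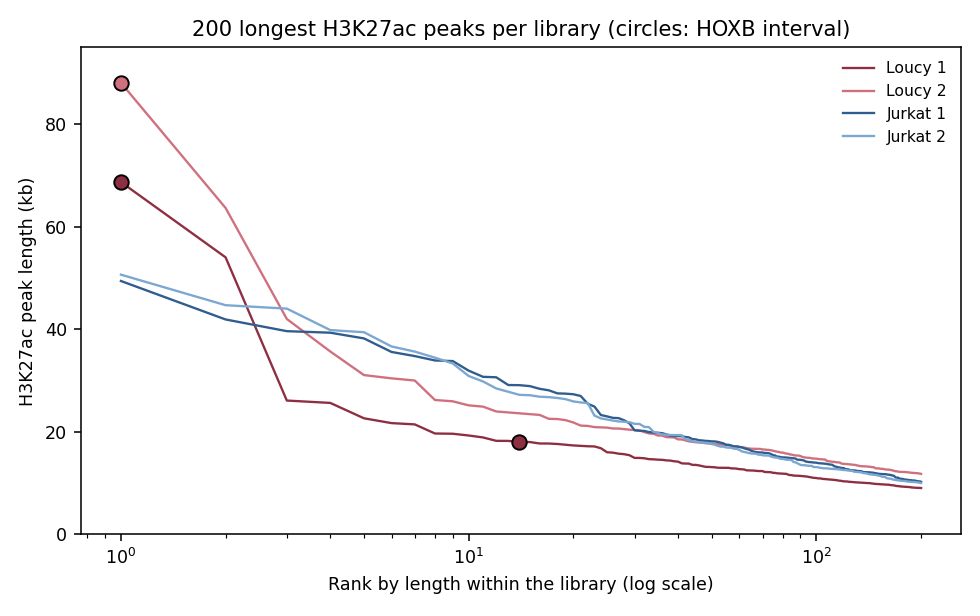
Length in kb of the 200 longest H3K27ac peaks of each human library against their rank by length within that library (log scale), with circles for peaks inside the interval on chromosome 17. The longest peaks of Loucy 2 (88.1 kb) and Loucy 1 (68.7 kb) lie in the interval, the second piece in Loucy 1 ranks 14, and no Jurkat peak of the interval is among the 200 longest.

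A shorter, stronger H3K27ac peak lay below the long region in Loucy cells, from 48541026 to 48547170 in Loucy 1 and from 48540060 to 48548191 in Loucy 2. It was 6.15 and 8.13 kb long, with the authors' fold enrichment of 11.1 and 12.5, and it ranked 268 and 386 by q-value. In Jurkat 2 a peak of 0.299 kb lay within its span, and Jurkat 1 had none. The remaining Loucy peaks of the interval were weak pieces of 0.877 kb in Loucy 1 and of 0.430 and 0.316 kb in Loucy 2. Outside the interval, the nearest Loucy H3K27ac peaks were 10.5 and 31.1 kb away on the lower side and 95.1 and 89.9 kb away on the upper side, so the region was bounded on its upper side by a long stretch without called H3K27ac.

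In Jurkat cells the interval held 6 and 7 short H3K27ac peaks, and all 6 of Jurkat 1 overlapped a peak of Jurkat 2. The strongest, from 48577224 to 48579063 in Jurkat 1 and from 48577360 to 48578985 in Jurkat 2, had the authors' fold enrichment of 10.4 and 11.1. The longest, from 48610135 to 48613386 in Jurkat 1 and from 48610136 to 48613309 in Jurkat 2, had 9.81 and 10.6. Both lie inside the span of the long Loucy region. Counting peaks with at least 50% of their length under H3K27ac peaks of both Loucy libraries gave 5 of 6 in Jurkat 1 and 6 of 7 in Jurkat 2, where genome-wide 34.7% and 38.8% of Jurkat H3K27ac peaks did. Since Loucy H3K27ac chose the interval, these counts are descriptions.

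H3K27me3 covered none of the interval in either Loucy library and 2.66% and 2.38% (5.59 and 5.01 kb) in Jurkat 1 and Jurkat 2. The Loucy lists held 189 and 200 H3K27me3 peaks in the whole genome, against 16687 and 10199 in Jurkat, so the lack of Loucy peaks here is that of nearly the whole Loucy list and says nothing particular about the interval. Jurkat had 6 H3K27me3 peaks in the interval in each library, of which 4 overlapped between the libraries. The longest was 2.85 kb (48624717 to 48627566) in Jurkat 1 and 2.27 kb (48624580 to 48626847) in Jurkat 2, ranking 258 and 262 by length in their lists. By the authors' q-value, the strongest had a −log10 of 3.35 in Jurkat 2 (48617354 to 48618274), rank 71 of 10199, and of 1.95 in Jurkat 1 (48624717 to 48627566), rank 1696 of 16687. Both Jurkat lists were weak as a whole, with 24 and 23 peaks of −log10 q of at least 5.

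Jurkat cells thus carried both marks within the span that Loucy cells had under H3K27ac, as separate short peaks. No Jurkat H3K27ac peak of the interval overlapped a H3K27me3 peak of the same library, and the closest pair stood 153 bp apart in Jurkat 1 and 842 bp apart in Jurkat 2. Of the Jurkat H3K27me3 peaks in the interval, 5 of 6 in Jurkat 1 and 6 of 6 in Jurkat 2 lay with at least 50% of their length under Loucy H3K27ac, where 1.79% and 2.1% of all Jurkat H3K27me3 peaks did. The interval was chosen for its Loucy H3K27ac, so a high share was built into the choice and nothing is read from it. The lines come from different patients and were called against separate inputs, and line, origin and input cannot be told apart here.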

How the data were processed

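The members and gene lists were chosen with earlier results of these data known. Fixed chromatin was sheared to 200 to 500 bp, and added Drosophila reads were not used by the submitters, per the labels' protocols. Bowtie2 2.2.5 and MACS2 2.0.10 on mm10 and hg38 are named in the submitters' processing notes. Per the file headers, MACS 2.0.10.20131216 called broad peaks in each library with a q threshold of 0.05 and 1 fragment retained at a position. The headers name the input of WT1 for WT mice, that of DKOITD48 for DKOITD mice, and that of replicate 2 for each cell line. The deposited files give each peak a pileup (signal), the −log10 of its p-value and q-value, and a fold enrichment (a ratio to local background), all computed by the authors. The H3K27ac headers of WT1 and DKOITD53e name a single run, and those of the other mice merged runs. The 4 input libraries were not analysed here.

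Overlapping peaks were merged, and the percent of each gene plus 1.0 kb either side under peaks was computed with gene positions from a RefSeq table of GRCm38, which gives no strand. limma 3.58.1 (R 4.3.3) was fitted per mark to genes with at least 200 bp covered in 3 or more mice, two-sided, with Benjamini-Hochberg adjustment over all genes tested, and was tested on simulated data. A region was held where peaks covered at least 10% of it. Cluster values had no test, being a sum over chosen members, and neither did cell line values, since the interval was chosen on Loucy H3K27ac and an exact test of 2 libraries against 2 cannot pass 0.05. The text names all 10 HoxB genes, the nearest gene on either side, genes among the 5 nearest profiles, and from the other lists only genes that limma called (some items are not reported here); zero-valued markers and the Cdx genes were added after their values were seen. Alternatives were stricter peaks, equal peak numbers, other windows, no filter, a log2 scale, joined peaks and left-out mice.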

Additional observations from a re-analysis of the deposited data

Results flagged for a closer look

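Among 22 groups of 5 mice examined, 4 values stood far from the rest of their group (gap over range above 0.71), where chance flags about 1 in 20 groups. That rate does not apply to 2 of the 4, in which the other 4 mice were all at 0. At Hoxb4, H3K27ac covered 6.59% of the window in DKOITD53e, against 21.4% to 26.4% in the other 4 DKOITD mice. The same mouse set the low value of the site over the Hoxb4 interval's lower end, with 0.354 kb against 1.15 to 1.42 kb in the other 4, so these 2 values describe 1 peak. H3K27me3 at Hoxb4 was 7.58% in DKOITD185 and 0% in the other 4 DKOITD mice. The H3K27ac site starting at -7.43 kb from the lower end of Hoxb4 covered 0.354 kb in DKOITD48 and nothing in the other 4 DKOITD mice. DKOITD53e had the shortest H3K27ac list and DKOITD185 the longest H3K27me3 list of the 8 mice, and the part of that in these values was not tested.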

How the results depend on the processing

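No HoxB gene was called for H3K27me3 under any alternative (0 to 0 without each mouse in turn). For H3K27ac 0 to 1 were called without each mouse in turn. The 1 was Hoxb3 without WT2 (-4.95 points, limma adjusted p = 0.0415, and 0.232 to 0.607 without any other mouse). Without WT2, 490 of all 11257 genes were called lower and 15 higher, against 254 and 21 with all mice. The difference in H3K27me3 cover of the cluster, -0.522 points, became 24.4 with peaks of −log10 q of at least 5, 9.54 with equal peak numbers, 0.518 from Hoxb9 to Hoxb1 and 25.4 without DKOITD48, DKOITD53e and DKOITD83, and ranged from -8.26 to 5.57 without each mouse in turn. With the stricter peaks WT cover was at the floor, at 0%, 0% and 2.46% in WT1, WT2 and WT3, whose lists kept 265, 95 and 814 peaks. DKOITD48, DKOITD52, DKOITD53e, DKOITD83 and DKOITD185 had 12.8%, 52.5%, 2.52%, 2.14% and 56.4%, with 375, 2015, 184, 187 and 1543 peaks kept. The difference in H3K27ac cover of the cluster, -0.782 points, became -0.203 with the stricter peaks, -0.0319 with equal peak numbers and -1.39 from Hoxb9 to Hoxb1, and ranged from -1.22 to -0.500 without each mouse. The causes were not tested. Loucy minus Jurkat H3K27me3 cover, -2.52 points, became 0 with stricter peaks, -0.219 with equal peak numbers and -3.66 with peaks joined across 3.0 kb, and was -2.66 and -2.38 without either replicate; that for H3K27ac was 40.7 to 42.1, and the longest Loucy peak 68.7 to 88.1 kb.

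No gene whose direction turned was called either way (lowest adjusted p 0.102 by limma), so these signs carry no weight. Differences in points turned for H3K27me3 with equal peak numbers at Hoxb1 (39.6), Hoxb5 (1.10), Hoxb9 (4.30) and Hoxb13 (44.8), with stricter peaks at Hoxb2 (26.4) and Hoxb9 (67.0), and with 5 kb flanks at Hoxb1 (6.50), Hoxb2 (8.66) and Hoxb7 (-7.80). Without the 3 mice of small territory they turned at Hoxb1 (24.3), Hoxb2 (10.9), Hoxb5 (27.8), Hoxb6 (1.31), Hoxb9 (11.9), Hoxb13 (7.36) and, for H3K27ac, Hoxb4 (3.61). On the log2 scale Hoxb3 turned (-1.47). Without each mouse in turn H3K27me3 ranged from -5.95 to 3.33 at Hoxb2, -0.336 to 9.52 at Hoxb3, -4.70 to 18.3 at Hoxb7, -7.75 to 5.41 at Hoxb8 and -15.8 to 4.13 at Hoxb9, and H3K27ac from -7.27 to 4.24 at Hoxb4. Over all genes, H3K27me3 calls were 26 lower and 0 higher in DKOITD mice, but 0 and 8 with stricter peaks, 60 and 2 on the log2 scale, 2 and 26 without the 3 mice, and 4 to 46 lower without 1 mouse. H3K27ac calls were 254 and 21, but 45 and 10, 307 and 111, 18 and 102, and 74 to 490 lower. No paired analysis was possible because WT and DKOITD mice share no numbers and the cell lines were compared without a test. How far depth and enrichment set which weak peaks were called was not tested; for H3K27me3, DKOITD53e had 1891 peaks from 5492339 fragments and WT1 17225 from 2766339.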
